A study of Mus musculus with 4 samples.

Results

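The 10 genes described here encode the MHC class I molecule, its peptide loading machinery, the immunoproteasome and a transcriptional activator of class I genes. These are H2-K1, H2-D1, B2m, Tap1, Tap2, Tapbp, Psmb8, Psmb9, Psmb10 and Nlrc5. They were taken by name from the 34745 genes of the deposited table, by a rule that holds no measured value, although earlier results of these data were known when they were named. All 10 were present and passed the filter on low counts, which left 12590 genes for testing. After treatment with dimethyl itaconate (DI), 4 of them fell (B2m, Psmb8, Nlrc5 and Tapbp), 1 rose (H2-D1) and 5 did not pass the test (H2-K1, Tap1, Tap2, Psmb9 and Psmb10). Of all tested genes, 7.70% fell and 7.14% rose by the same test.

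The cells were BMMs, macrophages grown from the bone marrow of wild-type male C57BL/6 mice aged 8 weeks. Serum was withdrawn for 12 h. RANKL, the cytokine that drives macrophages towards osteoclasts, was then given for 24 h at 100 ng/mL, together with DI (RANKL+DI) or vehicle (RANKL+Veh, named DMSO in the column headers). DI is a membrane-permeable ester of itaconate, a metabolite that activated macrophages make, and its dose is 20 μM in the paper but 20 mM in the sample labels. There were 2 libraries in each group, and both groups received RANKL, so the comparison shows the effect of DI in cells given RANKL and not that of RANKL itself. The labels do not say that the libraries of a group came from separate cultures or mice, and p-values then measure only the spread between these libraries.

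Class I molecules display short peptides from the inside of the cell to CD8+ T cells and NK cells. The peptides are cut by the proteasome, whose 3 constitutive catalytic subunits (Psmb6, Psmb7 and Psmb5) can be replaced by the immunosubunits Psmb9, Psmb10 and Psmb8. The transporter Tap1/Tap2 carries the peptides into the endoplasmic reticulum, where tapasin (Tapbp) helps to fit them into a heavy chain (H2-K1 or H2-D1) paired with beta-2 microglobulin (B2m). Nlrc5 is the transactivator of class I genes. Interferons raise the expression of class I and immunosubunit genes through factors such as IRF1.

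Promoter sequences are shown for the heavy chains H2-K1 and H2-D1, whose counts moved apart, and for their light chain B2m. The RefSeq promoter table (GRCm38.p6) held windows of 300 bases, 250 before and 50 after the start of transcription, for 8 of the 10 genes, with 2 nearby starts for H2-K1, of which the first listed is shown. In the sequences below, written 5′ to 3′ along the strand of the gene, capitals mark matches of an IRF core, spelled AANNGAAA, and of a kappa B core, spelled GGGNNNNNCC, on either strand. The IRF core was added after the sequences had been seen. H2-D1 lies at chr17:35262844-35263143 (plus strand), H2-K1 at chr17:34000298-34000597 (minus strand) and B2m at chr2:122147437-122147736 (plus strand).
H2-D1: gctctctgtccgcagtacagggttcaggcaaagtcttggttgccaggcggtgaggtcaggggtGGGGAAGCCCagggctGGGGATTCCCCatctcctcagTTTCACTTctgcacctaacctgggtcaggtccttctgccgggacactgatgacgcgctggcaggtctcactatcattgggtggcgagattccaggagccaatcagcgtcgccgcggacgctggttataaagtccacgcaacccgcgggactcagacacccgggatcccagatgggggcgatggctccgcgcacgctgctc
H2-K1: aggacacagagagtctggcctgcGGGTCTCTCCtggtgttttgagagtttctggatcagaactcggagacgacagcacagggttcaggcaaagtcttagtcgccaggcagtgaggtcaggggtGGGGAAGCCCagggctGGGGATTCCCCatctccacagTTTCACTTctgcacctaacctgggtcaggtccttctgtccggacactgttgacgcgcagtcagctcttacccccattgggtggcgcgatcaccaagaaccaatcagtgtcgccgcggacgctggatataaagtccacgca
B2m: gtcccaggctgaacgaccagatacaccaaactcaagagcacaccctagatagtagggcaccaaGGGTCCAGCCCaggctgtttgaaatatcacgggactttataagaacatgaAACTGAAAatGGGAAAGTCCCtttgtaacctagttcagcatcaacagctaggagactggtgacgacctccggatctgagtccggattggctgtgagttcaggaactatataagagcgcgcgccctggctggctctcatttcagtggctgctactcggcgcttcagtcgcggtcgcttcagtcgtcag

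The H2-K1 and H2-D1 windows aligned over 228 columns, of which 206 were identical (90.35%). The stretch from the first doubly marked kappa B match, GGGGAAGCCC, to the IRF match, TTTCACTT, spans 45 bases and differed at 1 base between the 2 genes. Within this stretch, both genes therefore held the same kappa B and IRF matches. It lies at positions -187 to -143 in H2-D1 and -127 to -83 in H2-K1, counted from the start of transcription. H2-K1 held a further kappa B match, GGGTCTCTCC at -227 to -218, which was not found in the H2-D1 window. B2m held the longer interferon element GAAANNGAAA, as GAAACTGAAA at -139 to -130, with a kappa B match just downstream. Over 27025 promoters of the same length, 24.2% held the IRF core, 3.49% the longer element GAAANNGAAA (which contains an IRF core) and 50.4% the kappa B core. Among the 8 genes with a window, these were found in 3, 1 and 5, respectively. The STAT element TTCNNNGAA was present in 1 of the 8 (Psmb8) and in 8.47% of all promoters, and CCAAT in 6 of the 8 and in 37.9%. The Tap1 and Psmb9 windows share 275 bases, as these genes are read in opposite directions from neighbouring starts. Such matches are letters and not shown sites.

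The 4 libraries held between 16085692 and 19403480 counts, and the 10 genes took 0.580% to 0.630% of them. Macrophage markers were abundant in all libraries, led by Lyz2 at 17630 to 23786 CPM (read counts relative to library size, with TMM factors). Osteoclast markers were present and moved with the groups. Of the 8 tested, 5 were lower and 2 higher in RANKL+DI, beside 7.70% and 7.14% of all tested genes. Calcr, a marker of mature osteoclasts, was at 0 in every library. Of the 9 macrophage markers, Adgre1, Cd68, Mertk, Lyz2 and 1 of 2 identifiers named Itgam were higher with DI, while Fcgr1 and Cd14 were lower. Csf1r, C1qa and the other Itgam identifier did not pass the test. The summed macrophage markers were 28858 and 29638 CPM in RANKL+DI against 23514 and 22663 in RANKL+Veh. Most of that sum was Lyz2, at 22772 and 23786 CPM with DI and 18289 and 17630 with vehicle. The summed osteoclast markers were 731 and 714 CPM with DI against 764 and 741 with vehicle. Most of the latter sum was Atp6v0d2, which rose (509 and 509 CPM with DI, 427 and 418 with vehicle), whereas Mmp9 fell by 67.8%, Acp5 by 48.3%, Ctsk by 33.2% and Nfatc1 by 25.8%. The part of these markers in the results below was not tested. In bulk RNA, fewer cells of a type and less RNA per cell cannot be told apart. Markers of T and NK cells summed to at most 0.699 CPM, of dendritic cells to at most 1.02, of mast cells and basophils to at most 0.0600, and of erythroid cells to at most 0.0583. Neutrophil markers summed to 7.25 to 9.90 CPM and stromal and endothelial markers to 40.0 to 47.4. The B cell list summed to 21.3 and 23.5 CPM in RANKL+DI and to 10.7 and 11.8 in RANKL+Veh, nearly all of it Ighm, while Pax5 was at 0 in every library.

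The heavy chains, which bind the peptide, moved apart. H2-D1 (chr17:35262730-35267499) measured 2944 and 2920 CPM in the RANKL+DI libraries and 2345 and 2240 CPM in the RANKL+Veh libraries. Both DI libraries lay well above both vehicle libraries, and H2-D1 rose by 27.9% (log2 fold change 0.35, SE 0.035, adjusted p = 0.00281, edgeR). H2-K1 (chr17:33996017-34000333) measured 712 and 725 CPM with DI and 782 and 759 CPM with vehicle. Its libraries did not overlap and lay lower with DI, but the difference did not pass the test (log2 fold change -0.10, SE 0.035, adjusted p = 0.116, edgeR). With scaling by library size only, edgeR gave H2-K1 a log2 fold change of -0.20 and an adjusted p of 0.0126, over a range of 0.0126 to 0.561 among all alternatives. Within a library, where scaling plays no part, the ratio of H2-K1 to H2-D1 in counts per kilobase of exon was 0.212 and 0.218 with DI and 0.293 and 0.298 with vehicle. The ratio was lower in both DI libraries, by -0.46 on the log2 scale, with an exact two-sided permutation p of 0.333, the smallest that 2 libraries against 2 can give.

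B2m (chr2:122147686-122153083), the light chain shared by all class I molecules, went the other way from H2-D1. It measured 1800 and 1868 CPM in RANKL+DI and 2306 and 2199 CPM in RANKL+Veh. All DI values were below all vehicle values, and B2m fell by 18.6% (log2 fold change -0.30, SE 0.038, adjusted p = 0.00624, edgeR). The ratio of H2-D1 to B2m per kilobase was 0.545 and 0.521 with DI against 0.339 and 0.340 with vehicle, a log2 difference of 0.65 (exact permutation p = 0.333). H2-D1 and B2m were the members whose calls held under all 14 alternatives, including leaving out each library.

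**Figure D1:**
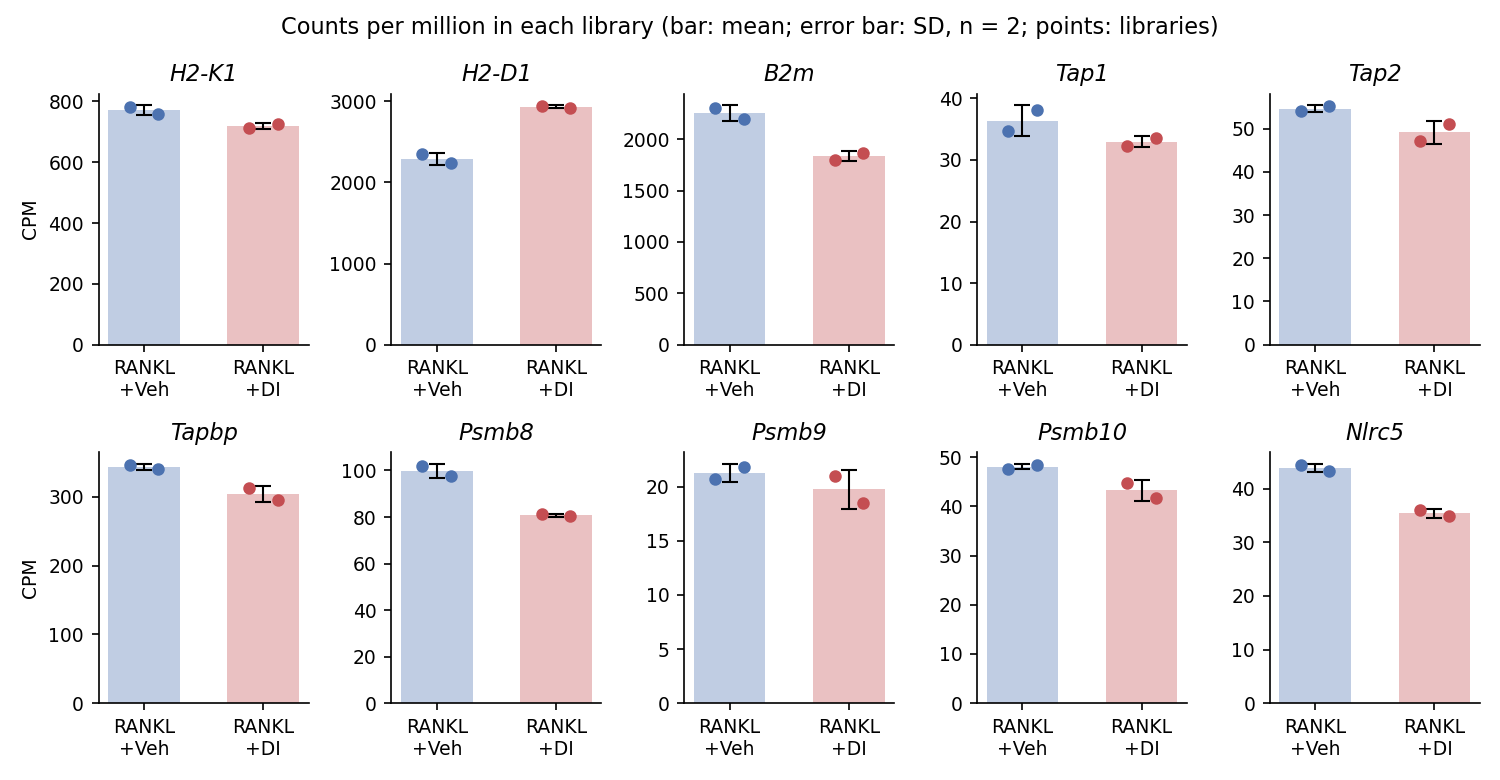
CPM (vertical axes, starting at 0, with a scale of their own in each panel) of the 10 genes in the 2 RANKL+Veh and 2 RANKL+DI libraries. Bars are means, error bars SD (n = 2) and points single libraries. H2-D1 is higher in both DI libraries, Psmb9 overlaps between the groups, and the other 8 genes are lower in both DI libraries.

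Reads can be hard to assign among heavy chain genes, because these are much alike. The longest transcripts of H2-K1 and H2-D1 were 91.2% identical over 1049 bases, with an identical run of up to 91 bases, and H2-D1 shared identical runs of 145 bases with H2-T23 and 130 bases with H2-Q6 and H2-Q7. No gene matched a member at 95% identity over at least 20% of its transcript. How reads with several matches were counted is not given in the sources used here. The counts of 14 classical and nonclassical heavy chain genes of the H2-K, H2-D, H2-Q and H2-T families were therefore summed, so that reads exchanged among them leave the value unchanged. The sum was 3906 and 3888 CPM with DI and 3430 and 3298 CPM with vehicle. It rose with DI (log2 fold change 0.21, SE 0.032, adjusted p = 0.0104, edgeR), but was not called with scaling by library size only (0.11, adjusted p = 0.0616, edgeR) or by edgeR's exact test (adjusted p = 0.0797). H2-D1 made up 75.4% and 75.1% of the sum with DI and 68.4% and 67.9% with vehicle.

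The peptide transporter and its partner showed smaller differences. Tapbp, which bridges the transporter and the heavy chain, measured 312 and 296 CPM with DI and 346 and 341 CPM with vehicle. It fell with DI by a log2 fold change of -0.18 (SE 0.043, adjusted p = 0.0442, edgeR), close to the threshold. The call was lost without RANKL+DI replicate 2 (-0.14, adjusted p = 0.191), without RANKL+Veh replicate 1 (-0.16, adjusted p = 0.138) and without RANKL+Veh replicate 2 (-0.19, adjusted p = 0.104), all by edgeR. It was also lost with the replicate number as a block (adjusted p = 0.0601, edgeR), by the DESeq2 Wald test (adjusted p = 0.0520) and by edgeR's exact test (adjusted p = 0.230). Of its exons, 4.11% overlap Zbtb22 on the same strand, a gene with a mean of 802.75 counts. On the opposite strand, 24.9% overlap Gm19412, with a mean of 10.25 counts.

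Tap1 measured 32.3 and 33.6 CPM with DI and 34.6 and 38.1 CPM with vehicle. Tap2 measured 47.2 and 51.0 CPM with DI and 54.1 and 55.2 CPM with vehicle. In both transporter genes the libraries did not overlap and those with DI were lower, yet neither passed the test, at log2 fold changes of -0.14 (SE 0.076) and -0.15 (SE 0.068). Their adjusted p values were 0.278 for Tap1 and 0.198 for Tap2 (edgeR). The ratio of Tap1 to Tap2 per kilobase was 0.473 and 0.455 with DI and 0.442 and 0.477 with vehicle, so that the DI values lay between those of vehicle. Tap1 and Psmb9 overlap on opposite strands over 212 bases of exon, 3.87% of Tap1 and 5.79% of Psmb9.

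Among the immunosubunits, Psmb8 fell and the other two did not pass the test. Psmb8, the chymotrypsin-like subunit that takes the place of Psmb5, measured 81.1 and 80.3 CPM with DI and 102 and 97.8 CPM with vehicle. The groups were well apart, with a log2 fold change of -0.31 (SE 0.052, adjusted p = 0.0144, edgeR). Without RANKL+Veh replicate 1 the value was -0.28 and the call was lost (adjusted p = 0.0615, edgeR). Psmb9, which takes the place of Psmb6, measured 21.03 and 18.5 CPM with DI and 20.7 and 21.9 CPM with vehicle. It was the one member whose groups overlapped (log2 fold change -0.11, SE 0.10, adjusted p = 0.544, edgeR). Psmb10, which takes the place of Psmb7, measured 44.8 and 41.8 CPM with DI and 47.7 and 48.5 CPM with vehicle. Its libraries did not overlap, at a log2 fold change of -0.15 (SE 0.068, adjusted p = 0.202, edgeR). With scaling by library size only, edgeR called Psmb10 lower (-0.25, adjusted p = 0.0480, range over the alternatives 0.0240 to 0.589).

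The constitutive counterparts went in part the other way. Psmb5 measured 119 and 125 CPM with DI and 99.3 and 99.5 CPM with vehicle, and rose (log2 fold change 0.30, SE 0.050, adjusted p = 0.0146, edgeR). The Psmb5 call was lost without RANKL+Veh replicate 1 (0.29, adjusted p = 0.0612, edgeR) and without RANKL+Veh replicate 2 (0.30, adjusted p = 0.0615, edgeR). Psmb6 (0.16, adjusted p = 0.110) and Psmb7 (-0.07, adjusted p = 0.492) did not pass the edgeR test. The ratio of Psmb8 to Psmb5 per kilobase was 0.182 and 0.170 with DI and 0.273 and 0.261 with vehicle, which gives -0.60 as a log2 difference. For Psmb9 to Psmb6 it was 0.0747 and 0.0628 with DI and 0.0773 and 0.0877 with vehicle (-0.27). Both ratios were lower in both DI libraries, each with an exact permutation p of 0.333. For Psmb9 to Psmb6 the groups nearly touched, at 0.0747 with DI and 0.0773 with vehicle. The ratio of Psmb10 to Psmb7 was 0.797 and 0.696 with DI and 0.762 and 0.819 with vehicle, and its groups overlapped (-0.09, exact permutation p = 0.667). Of the Psmb7 exons, 11.8% overlap Nek6 on the opposite strand, a gene with a mean of 1209.5 counts.

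**Figure D2:**
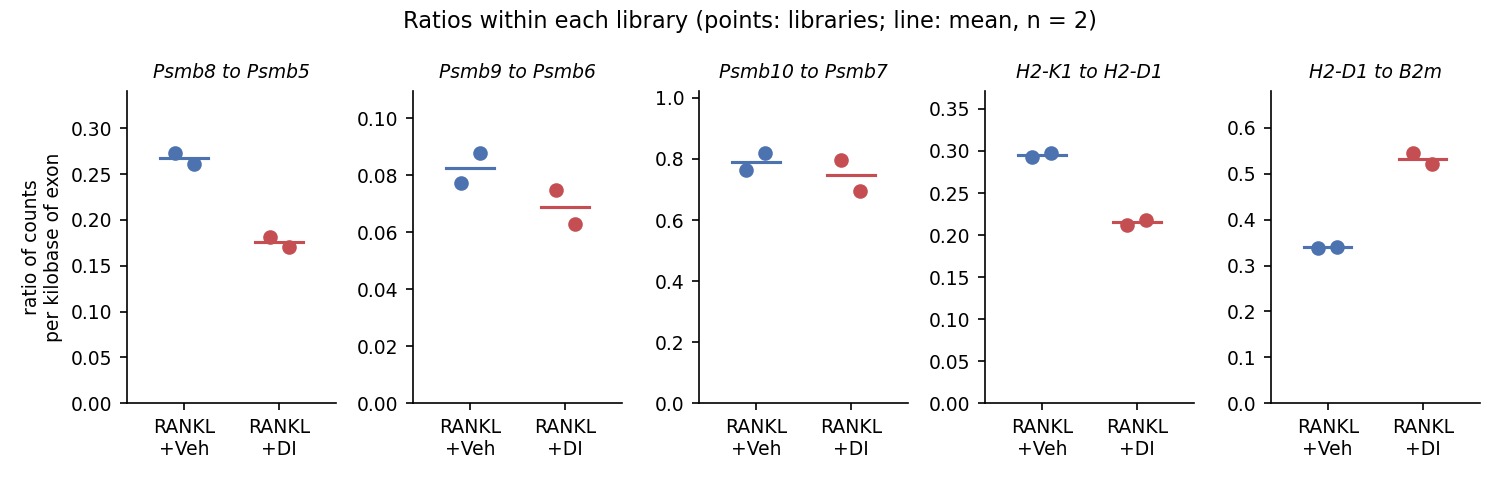
Ratios of counts per kilobase of exon within each library (vertical axes, starting at 0) for the 3 immunosubunits over their constitutive counterparts, for H2-K1 over H2-D1 and for H2-D1 over B2m. Points are libraries and lines are means (n = 2). The groups do not overlap in 4 panels, though they nearly touch for Psmb9 to Psmb6, and they overlap for Psmb10 to Psmb7.

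Nlrc5, the transactivator of class I genes, measured 35.9 and 34.8 CPM with DI and 44.4 and 43.3 CPM with vehicle. The groups were apart, and Nlrc5 fell by a log2 fold change of -0.31 (SE 0.064, adjusted p = 0.0275, edgeR). The change kept its direction without each single library, at -0.33 to -0.28, but the call was lost each time (edgeR, adjusted p = 0.0676 without RANKL+DI replicate 1, 0.129 without RANKL+DI replicate 2, 0.113 without RANKL+Veh replicate 1 and 0.0763 without RANKL+Veh replicate 2). It was also lost by the DESeq2 Wald test (adjusted p = 0.0847) and by edgeR's exact test (adjusted p = 0.0501).

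Over all 10 genes, 9 had a log2 fold change below 0 and the median was -0.15, beside 0.0012 over all tested genes. By edgeR, 4 of the 10 were called lower, where 7.70% of all tested genes were, and 1 of the 10 higher, where 7.14% were. The libraries did not overlap and lay lower with DI in 8 of the 10, beside 29.6% of all tested genes, and lay higher in 1, beside 29.0%. The number called lower ranged from 1 to 6 over the alternatives, and H2-D1 was called higher in all of them. The 9 genes below 0 lay between -0.31 and -0.10. The 5 called genes lay outside the quartiles of all tested genes (-0.17 and 0.16). None of them reached the outer 5% on either side (below -0.60 or above 0.55).

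**Figure D3:**
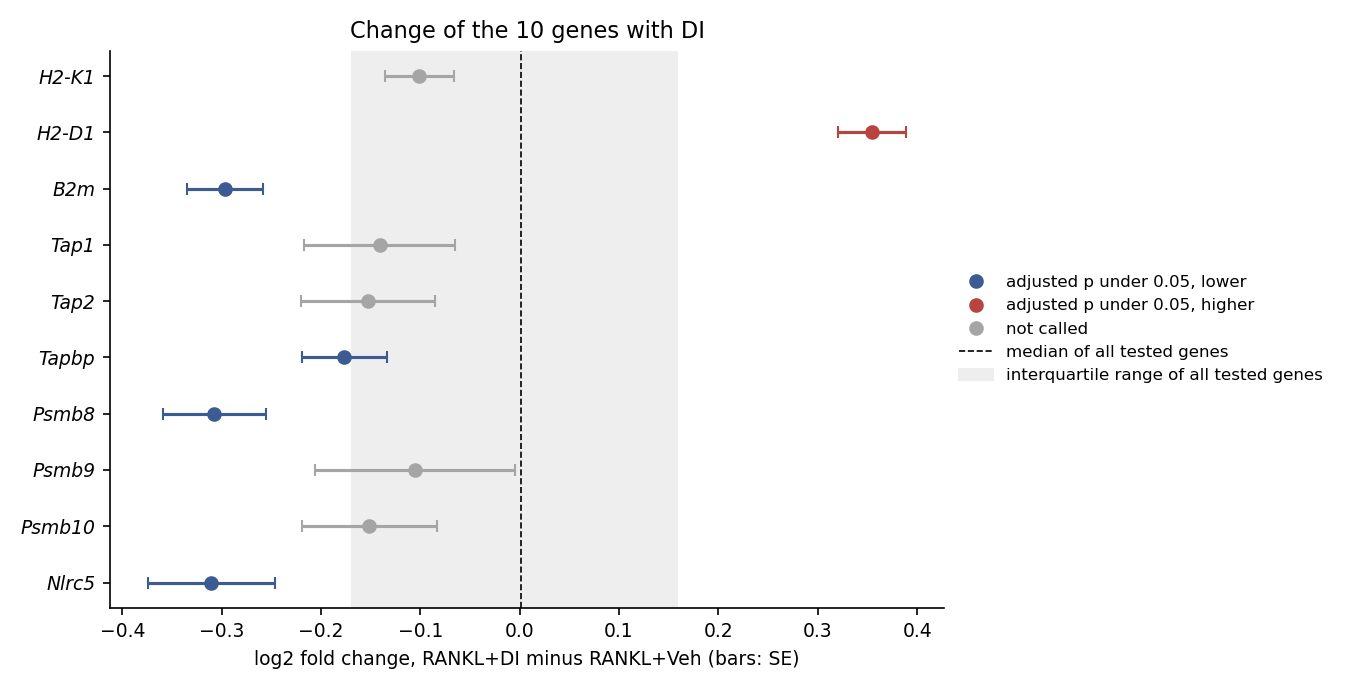
Log2 fold change of each gene, RANKL+DI minus RANKL+Veh (horizontal axis), with SE bars from the edgeR fit. The dashed line is the median of the 12590 tested genes and the grey band their interquartile range. H2-D1 lies alone on the right at 0.35, and Nlrc5, Psmb8 and B2m lie farthest to the left, near -0.30.

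The 10 genes spanned a wide range of levels, which can be compared between genes per kilobase of exon. As means of the RANKL+DI and RANKL+Veh libraries, B2m was at 2132 and 2619 CPM per kilobase, H2-D1 at 1137 and 889, H2-K1 at 245 and 262 and Tapbp at 83.8 and 94.7. The first 3 are the parts of the class I molecule itself, and each stood clear of the next over all 4 libraries. Psmb10 (25.4 and 28.2) and Psmb8 (23.9 and 29.5) overlapped over the libraries and changed order between the groups on this scale. With the lengths behind the deposited FPKM they did not overlap, with Psmb10 at 31.8 to 39.5 and Psmb8 at 20.2 to 27.4, so their order rests on the exon lengths used. Below them came Tap2 (13.0 and 14.5) and Tap1 (6.02 and 6.64). Tap1 overlapped Psmb9 (5.40 and 5.81), and Psmb9 overlapped Nlrc5 (4.17 and 5.17). The lengths are merged exons of GENCODE M21, and lengths implied by the deposited FPKM were between 0.745 and 2.47 times as long, the latter for H2-K1 (7271 against 2938 bases).

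Beyond the 10 genes, 89 further genes of the class I pathway were listed in 7 groups, of which 86 were in the table and 77 were tested. Of these, 10 were called lower and 7 higher (22.1% in all, beside 14.8% of all tested genes), and their median log2 fold change was -0.03. The 17 calls became 9 without RANKL+Veh replicate 1 and 10 without RANKL+Veh replicate 2. The other heavy chain genes and the regulators held 9 of the 10 lower calls.

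Of 14 tested other heavy chain genes, 5 fell and 9 were not called, beside 7.70% of all tested genes called lower. H2-Q4, a nonclassical heavy chain gene, measured 58.7 and 60.4 CPM with DI and 84.9 and 86.2 CPM with vehicle (log2 fold change -0.52, SE 0.055, adjusted p = 0.00346, edgeR). H2-Q7, which encodes the nonclassical Qa-2 antigen, measured 2.85 and 3.68 CPM with DI and 9.18 and 9.37 CPM with vehicle (-1.50). H2-Q6 (-1.11), H2-T24 (-1.05) and H2-M2 (-1.27) fell as well, all by edgeR. These genes were lower in both DI libraries while the H2-D1 counts were higher. H2-Q6 is 96.9% identical to H2-Q4 and 95.7% to H2-Q7 over part of its transcript, so the counts of these 3 are uncertain one by one, and 19.1% of the H2-Q4 exons overlap Gm11131 on the opposite strand. The H2-Q6 call was lost without RANKL+Veh replicate 2 (adjusted p = 0.0812, edgeR). That of H2-M2 was lost without RANKL+Veh replicate 1 (adjusted p = 0.0629) and without RANKL+Veh replicate 2 (adjusted p = 0.0569), both by edgeR. H2-T23, which encodes Qa-1, measured 111 and 102 CPM with DI and 110 and 101 CPM with vehicle, and its groups overlapped (0.02). H2-T22 was at -0.23 and just missed the threshold (adjusted p = 0.0581, edgeR).

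Among 9 further genes of peptide loading in the endoplasmic reticulum, 2 rose and 7 were not called, beside 7.14% of all tested genes called higher. Both that rose belong to the peptide loading complex. The chaperone Calr measured 776 and 790 CPM with DI and 715 and 699 CPM with vehicle (log2 fold change 0.15, SE 0.034). The disulfide isomerase Pdia3 measured 647 and 651 CPM with DI and 586 and 588 CPM with vehicle (0.15, SE 0.033). Both were small differences near the threshold (edgeR, adjusted p = 0.0384 for Calr and 0.0359 for Pdia3), and both calls were lost whichever library was left out (edgeR, adjusted p from 0.0684 to 0.153). With library size only the log2 fold changes were 0.04 in both. The chaperone Hspa5 measured 425 CPM in RANKL+DI replicate 1 and between 247 and 258 CPM in the other 3 libraries, so that 1 library stood apart. The trimming peptidase Erap1 was at -0.11 and did not pass the test (adjusted p = 0.287, edgeR).

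Of 9 proteasome activators and assembly factors, 2 rose, beside 7.14% of all tested genes called higher. Pomp, the chaperone of proteasome assembly, measured 112 and 121 CPM with DI and 84.5 and 91.6 CPM with vehicle (log2 fold change 0.40, SE 0.067, adjusted p = 0.0138, edgeR). It was not called without RANKL+Veh replicate 1 (0.35, adjusted p = 0.0565, edgeR). Psme4, which encodes the activator PA200, rose by 0.18 (adjusted p = 0.0399, edgeR), a call lost whichever library was left out (adjusted p from 0.0835 to 0.151) and with library size only (0.08, adjusted p = 0.238). The subunits of the interferon-inducible activator PA28, Psme1 (-0.19, adjusted p = 0.178) and Psme2 (-0.11, adjusted p = 0.414), did not pass the edgeR test. Of the 11 other core subunits, 0 were called by edgeR, 1 had an unadjusted p under 0.05, and 0 were called by the DESeq2 Wald test, limma-voom or edgeR's exact test. Their log2 fold changes lay between -0.16 and 0.11. With library size only 1 was called, and with log2(FPKM + 1) and limma 3 were. Of 7 cytosolic peptidases, Prep fell (-0.19, adjusted p = 0.0398, edgeR), again a call lost whichever library was left out (adjusted p from 0.0954 to 0.154).

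**Figure D4:**
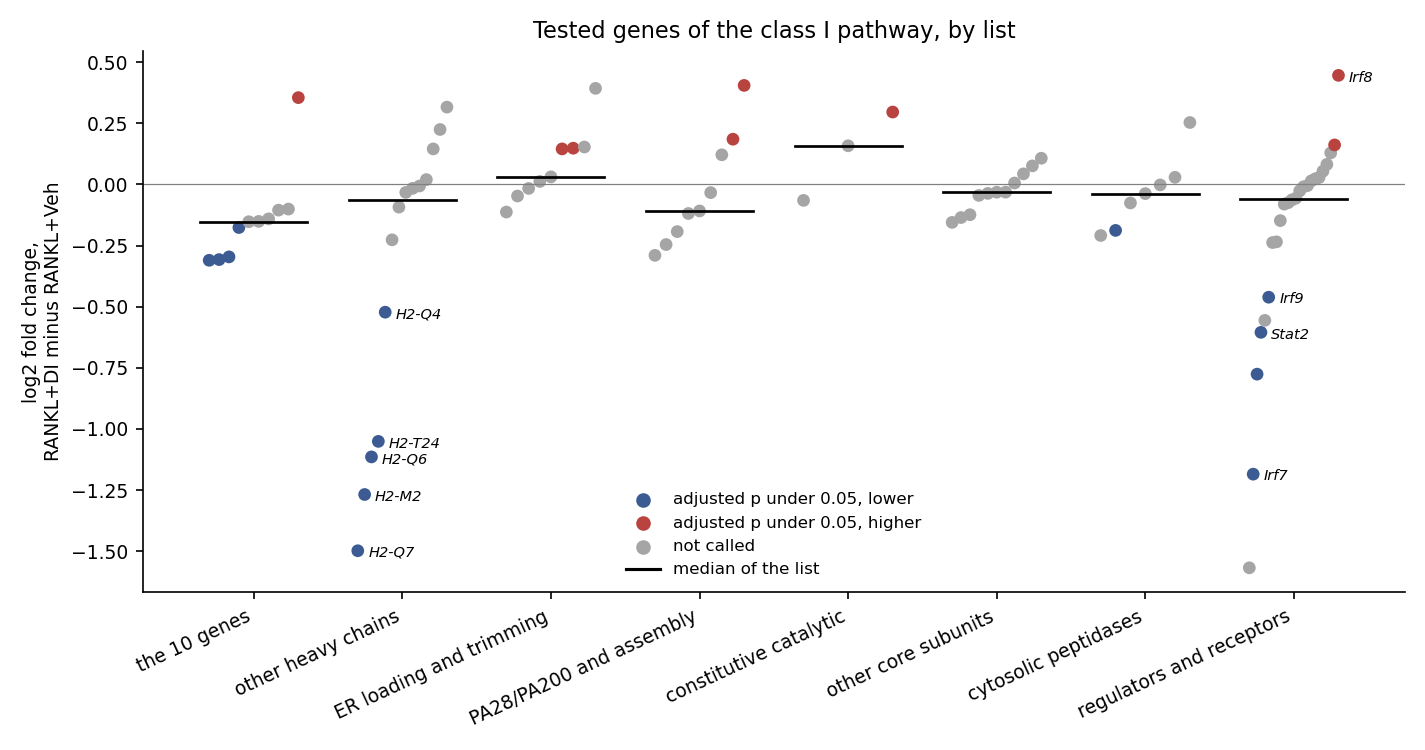
Log2 fold change, RANKL+DI minus RANKL+Veh (vertical axis), of each tested gene of the 10 and of the 7 other groups of the class I pathway. Each point is a gene, coloured by its call at an adjusted p under 0.05 (edgeR), and each line the median of its group. The largest drops lie among the other heavy chain genes and the regulators, and no core subunit is called.

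Of 24 tested regulators of class I transcription and interferon receptor genes, 4 fell and 2 rose, beside 7.70% and 7.14% of all tested genes. Among those that fell was Stat2, which carries the type I interferon signal to the nucleus and measured 59.5 and 53.9 CPM with DI and 82.5 and 90.1 CPM with vehicle (-0.61, SE 0.078, adjusted p = 0.00618, edgeR). Irf9, its partner in binding DNA, fell by 0.46 on the log2 scale. Irf7, which amplifies the type I interferon response, measured 12.6 and 14.8 CPM with DI and 32.5 and 29.9 CPM with vehicle (-1.18, SE 0.11). The calls of these 3 genes held under all 14 alternatives. Irf1, the direct activator of several class I promoters, measured 25.5 and 24.5 CPM with DI and 29.6 and 29.3 CPM with vehicle, and did not pass the test (-0.24, adjusted p = 0.0866, edgeR).

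Irf8, a factor of the macrophage lineage, measured 124 and 126 CPM with DI and 91.4 and 92.3 CPM with vehicle, and rose (log2 fold change 0.45, SE 0.045, adjusted p = 0.00301, edgeR). Its call also held under all 14 alternatives. Nfya, a subunit of the factor that binds CCAAT, rose by 0.16 (adjusted p = 0.0486, edgeR) at the edge of the threshold, a call lost under 11 of 14 alternatives, among them leaving out each library (adjusted p from 0.132 to 0.164). The RFX subunits Rfx5 (-0.03), Rfxap (0.08) and Rfxank (0.05), which bind class I promoters together with Nlrc5, were not called. Nor were the interferon receptor genes Ifngr1 (-0.01), Ifngr2 (0.03), Ifnar1 (-0.005) and Ifnar2 (-0.08). Nfkb1 (-0.24, adjusted p = 0.0607) and Rela (-0.06, adjusted p = 0.534), which encode NF-κB subunits, did not pass the edgeR test. Ciita, the counterpart of Nlrc5 for class II genes, was low, at 0.816 and 0.373 CPM with DI and 1.88 and 1.62 CPM with vehicle (-1.57, adjusted p = 0.0580, edgeR). Of 13 alternatives, Ciita was called lower in 5 and not called in 8. The calls included edgeR's exact test (adjusted p = 0.00379) and scaling by library size only (adjusted p = 0.0396, edgeR). Leaving out RANKL+DI replicate 1 gave -2.21 and a call (adjusted p = 0.0499, edgeR), while leaving out RANKL+DI replicate 2 gave -1.09 (adjusted p = 0.217, edgeR), and it was not called without either vehicle library (adjusted p of 0.192 and 0.136, edgeR).

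Of the 10 genes, 6 lie in the MHC region between the start of H2-K1 and the end of H2-D1 on chromosome 17 (33996017 to 35267499): H2-K1, Psmb9, Tap1, Psmb8, Tap2 and H2-D1. The region holds 114 genes of the table, of which 56 were tested. By edgeR, 7 of these were lower (12.5%, beside 7.70% of all tested genes) and 1 was higher (1.79%, beside 7.14%), which was H2-D1 at the far end. Psmb8 was the class I pathway gene among the 7. The cluster of Psmb9, Tap1, Psmb8 and Tap2 thus held 1 called gene and 3 that were not.

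**Figure D5:**
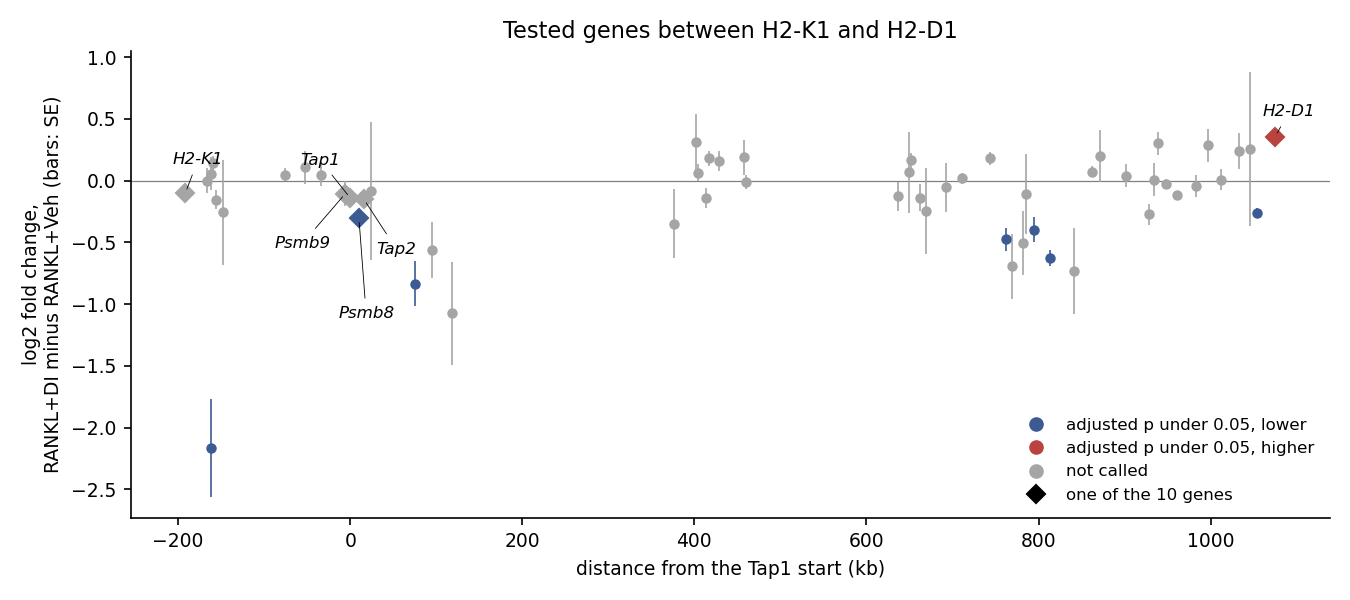
Log2 fold change, RANKL+DI minus RANKL+Veh (vertical axis, SE bars from edgeR), of the 56 tested genes between H2-K1 and H2-D1, against the distance in kilobases from the start of Tap1. Diamonds mark members of the 10 genes. H2-D1 is the gene called higher, and Psmb8 is the member called lower.

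The genes outside these lists whose profile over the 4 libraries was nearest to the median of the 10, by Euclidean distance of centred log2 CPM, were Ahctf1, Btg1, Skil, Smarca4 and Snrnp70. Their distances were 0.025 to 0.030 and their log2 fold changes -0.20 to -0.17. With 4 libraries, such a likeness describes these values and no more.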

How the data were processed

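RNA of BMMs was measured in 2 RANKL+DI and 2 RANKL+Veh libraries, grouped by their labels. The authors deposited unnormalized read counts for each gene, and FPKM values that follow from these counts. Messenger RNA libraries had been sequenced from both ends. The labels name the builds GRCm38 and mm10, while the aligner and the counting program are not given in the sources used here. A second deposited table with the same counts and added annotation was not used.

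Counts were tested in R 4.3.3 with edgeR 4.0.16 (TMM factors, default filter on low counts, quasi-likelihood test, Benjamini-Hochberg adjustment over 12590 genes, called at an adjusted p under 0.05). SE is the log2 fold change over the root of F. CPM use the TMM scale, on which 3 counts are worth 0.160 to 0.180, and this floor covers counting error only. Ratios used merged exon lengths of GENCODE M21 and an exact two-sided permutation test. Transcripts were compared with BLAST 2.17.0 and promoters with Biopython 1.88. Alternatives were other scalings and filters, DESeq2 1.42.0, limma 3.58.1, edgeR's exact test, log2(FPKM + 1), a replicate block and leaving out each library. The same alternatives for named genes outside the 10 were added after the data were seen. Replicates were no duplicates of each other (chi-square per degree of freedom 7.57 and 7.74). The steps were tested on simulated data. The changes planted there were larger than any that the 10 genes showed, so recovery of changes this small was not tested. Named were the 10 genes, genes of the lists, genes overlapping or resembling them, counts over the MHC region and the 5 nearest profiles. The members and lists were chosen with earlier results of these data known. Some listed genes are not reported here.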

Additional observations from a re-analysis of the deposited data

How the results depend on the processing

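The 10 genes kept their direction in all 140 values over the 14 alternatives. In 123 of them they also kept their side of the threshold, while 13 calls were lost (Nlrc5, Tapbp and Psmb8) and 4 gained (H2-K1 and Psmb10). The 23 other named genes kept their direction in 321 of 321 values, with 50 calls lost and 10 gained. Ciita had no value with at least 10 counts in every library. Members called lower were 2 by the DESeq2 Wald test and 2 by edgeR's exact test instead of 4, and 1 to 3 when one library was left out, with 1 without RANKL+Veh replicate 1. The number called higher was 1 throughout. Their median moved to -0.26 with library size only and to -0.24 with log2(FPKM + 1) and limma, and lay between -0.20 and -0.14 when one library was left out. Library size only moved the median of all genes by -0.10, and the members' median stayed below it. Of all calls, 51.9% were lower in the main test, 77.9% with library size only and 75.7% with log2(FPKM + 1). Called genes numbered 1868, and 1087 to 1394 with one library left out. Pathway genes called outside the 10 were 17, and 9 to 15. The summed heavy chains were not called with library size only (0.11) or by edgeR's exact test (0.21), and lay at 0.19 to 0.24 with one library left out. With the sum of the 3 constitutive subunits as denominator, the log2 difference was -0.50 for Psmb8 and -0.35 for Psmb10. Over their own counterparts, Psmb5 and Psmb7, these were -0.60 and -0.09, and the groups of the latter overlapped. Ratios of the deposited FPKM gave the same log2 differences, since a fixed gene length cancels, and so test nothing further.

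Same-numbered libraries did not deviate together over the genes (correlation -0.030). With 2 libraries in a group, this value cannot show whether same-numbered libraries were paired. With a replicate block, 3 members were called lower and 1 higher, with a median of -0.15, 1389 genes were called in all, 14 of them pathway genes outside the 10, and the summed heavy chains were at 0.21 (adjusted p = 0.0204, edgeR). The cause of these shifts was not tested. With one library left out, the lone library of a group was taken to vary like the other group. With 2 libraries in a group and no ratio test able to pass 0.05, small differences such as those of Tap1, Tap2 and Psmb9 were not resolved here.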
